A study of Homo sapiens with 30 samples.

Results

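PD-1/CD27 hybrid tumoroids were compared with PD-1 hybrid tumoroids, the same three-dimensional cultures in which the synthetic cells presented PD-1 without CD27. The libraries were chosen by their sample titles, 3 for PD-1/CD27 and 3 for PD-1, so 6 of the 30 libraries of the series. In both groups PANC-1 cells, an epithelial cell line from a human pancreatic ductal adenocarcinoma with a wild-type genotype label, were mixed with DSLBs, which are droplet-supported lipid bilayers, oil droplets that wear a lipid membrane. The DSLBs of the PD-1/CD27 group presented recombinant PD-1 and CD27 and those of the PD-1 group PD-1 alone, in both cases as His-tagged proteins held by nickel-chelating lipids. The sequencing methods give 100000 cells per culture and the labels 50000 to 100000, and libraries were made from 150 ng of total RNA. Further groups carried plain DSLBs without protein, no DSLBs, or PD-1 together with CD2, CD40L, CTLA4, ICOS, LAG3 or TIGIT. As a model, both groups consist of 1 cell line and purified ectodomains, without immune cells and without the intracellular part of either receptor. The methods give the same mixing ratio for a single protein and for premixed blends, and the PD-1 density on each kind of DSLB was not analysed here.

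CD27 is a costimulatory receptor of the TNF receptor family on lymphocytes, and its ligand CD70 is a TNF family protein that several carcinomas carry. PD-1 is an inhibitory receptor of T cells that binds PD-L1, the product of CD274, and PD-L2, the product of PDCD1LG2. Here the receptors sit on the synthetic cell and face the PANC-1 cells, so the partners to look for are the ligands of the cancer cell. TNF receptor family signaling runs through TRAF adaptors to NF-kB, and its target genes include TRAF1 and TNFAIP3.

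The mRNA of the CD27 ligand was present and that of the PD-1 ligands was nearly undetected. CD70 had 22.6, 19.9 and 20.6 TPM (a level scaled for transcript length and library total) in PD-1/CD27 hybrids, against 24.2, 24.7 and 22.6 TPM in PD-1 hybrids. The groups of CD70 values in CPM (counts relative to the library total, scaled between libraries by TMM factors) did not overlap, with 11.5 to 12.6 CPM in PD-1/CD27 and 13.1 to 14.5 CPM in PD-1 hybrids, but the difference did not pass the test (log2 fold change −0.22, edgeR adjusted p = 0.233). A log2 fold change is the PD-1/CD27 over PD-1 ratio on the log2 scale, and the adjusted p comes from edgeR's quasi-likelihood test after Benjamini-Hochberg adjustment over all genes tested, with values under 0.05 taken as passing. CD274 had 6, 3 and 1 counts in the PD-1/CD27 libraries, against 3, 8 and 4 counts in the PD-1 libraries, or at most 0.27 TPM in any of the 6 libraries. PDCD1LG2 had 1 count in all 3 PD-1/CD27 libraries together and 0 in the PD-1 libraries. For CD27 itself, 0 counts in the PD-1/CD27 libraries together allow up to 0.026 CPM (3 counts, counting error only), and the PD-1 libraries held 1 count. The mRNA level says nothing of the ligand protein on the cell surface, which was not measured in these files.

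Epithelial markers were abundant and those of most other cell types low. KRT8, a keratin of simple epithelia, averaged 3283 TPM in PD-1/CD27 and 3226 TPM in PD-1 hybrids, and KRT19, a ductal keratin, averaged 1260 and 1369 TPM in the same order. The 12 ductal and epithelial markers summed to 6205 to 6600 CPM in PD-1/CD27 and 6621 to 7104 CPM in PD-1 hybrids, and none of the 11 tested passed the test. The 12 lymphocyte markers summed to 2.23 to 2.28 CPM in PD-1/CD27 and 1.51 to 1.73 CPM in PD-1 hybrids, with CD3D, CD3E, CD2, MS4A1 and NKG7 at 0 counts in all 6 libraries. The 7 macrophage markers summed to 44.9 to 48.2 CPM and 41.1 to 51.5 CPM in the same order, nearly all from CD68, which epithelial cells also express. The 9 fibroblast markers, of which COL1A1 made up nearly all, summed to 360 to 449 CPM in PD-1/CD27 and 494 to 561 CPM in PD-1 hybrids, the 7 endothelial markers, nearly all from EGFL7, to 50.2 to 56.2 and 56.1 to 61.3 CPM, and the 9 acinar and islet markers to at most 0.244 CPM.

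RSEM's estimated, or expected, counts summed to 48.4, 29.2 and 37.7 M (mega) counts in the PD-1/CD27 libraries and to 41.0, 54.7 and 34.4 M in the PD-1 libraries, within the 21.9 to 60.5 M of the series. PD-1 replicate 1 stood apart from the other PD-1 libraries, with chi-square distances between expression profiles of 16.2 and 20.6 from them, beside 4.20 between those. It held the lowest of the 3 PD-1 values for 328 of the 378 genes that were higher with CD27. Mitochondrial genes took 6.34, 5.66 and 5.90% of the counts in PD-1/CD27 libraries, against 2.66, 3.95 and 4.0% in PD-1 libraries. Nuclear genes that do not code for protein took 2.18, 1.97 and 2.22% in PD-1/CD27 and 1.75, 1.82 and 1.87% in PD-1 libraries. The part of these shares in the results below was not tested. The 3 cultures of a group are given as biological replicates grown in parallel. The p-values set each difference against the spread between replicate cultures. That spread was estimated over all 10 groups (30 libraries, 20 residual degrees of freedom), not from the 6 libraries compared alone. In bulk RNA, fewer cells of a type and less RNA per cell cannot be told apart.

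Presenting CD27 beside PD-1 was accompanied mostly by higher RNA levels. Of 18424 genes tested, 378 (2.05%) were higher and 43 (0.233%) lower in PD-1/CD27 than in PD-1 hybrids at an adjusted p under 0.05 from edgeR (n = 3 cultures each). All 421 had PD-1/CD27 values outside the range of the PD-1 values, whereas over all genes 13.5% were higher and 13.4% lower without overlap. The higher genes had a median log2 fold change of 0.66 and the lower ones of −0.30. Of the higher genes 204 code for protein, 117 (31.0%) are long noncoding RNAs (lncRNAs) and 38 (10.1%) are pseudogenes, compared with 12.7% lncRNAs and 6.66% pseudogenes among all genes tested. Of the 43 lower genes 40 code for protein. The counts depended on single libraries. Without PD-1 replicate 1 there were 22 higher and 3 lower genes, all among the 421. There were 147 and 5 without PD-1 replicate 2, 69 and 2 without PD-1/CD27 replicate 1, 527 and 82 without PD-1/CD27 replicate 2, and 79 and 4 without PD-1/CD27 replicate 3. No called gene changed its direction under any alternative that gave it a value. In the 6 comparisons that each left out 1 library, 22 genes stayed higher and 1 (PRR36) stayed lower throughout. Among the 22 were SCARNA7, THUMPD3-AS1, RSRP1, SNHG3, SNHG20, ACAD11, WSB1 and MIOS-DT.

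**Figure D1:**
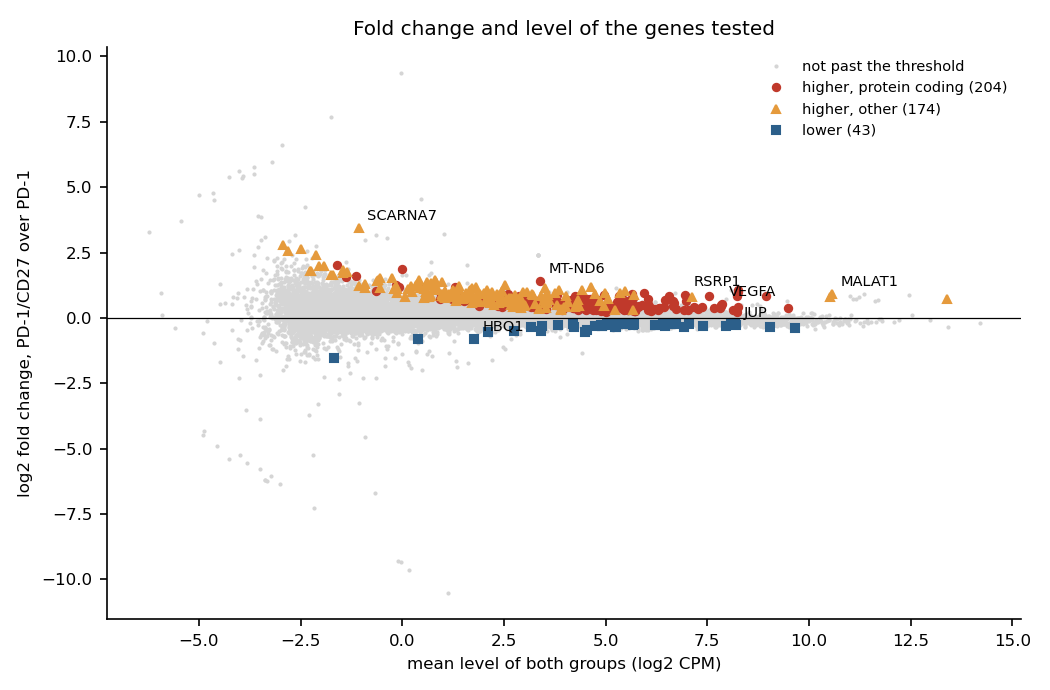
Log2 fold change of PD-1/CD27 over PD-1 hybrids (vertical axis) against the mean level of both groups in log2 CPM (horizontal axis), 1 point per gene tested. The 204 protein-coding and 174 other genes that were higher lie above the line at 0 over the whole range of levels, and most of the 43 lower genes lie at moderate to high levels with smaller changes.

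Transcripts of splicing regulators formed the list with the most higher members among those with a cellular function. This list holds genes for RNA-binding and splicing proteins together with transcripts known to keep introns in the nucleus. Of its 50 members 12 (24.0%) rose, beside 2.05% of all genes tested, with a list median of 0.32, against −0.00 over all genes. None fell, and the list was chosen with earlier results of these data known. Its members summed to 9424 to 11115 CPM in PD-1/CD27, 7890 to 9093 CPM in PD-1 and 9390 to 9997 CPM in plain DSLB hybrids. The PD-1/CD27 range thus overlapped that of plain DSLB hybrids, and the PD-1 group was the low one. RSRP1, an arginine/serine-rich nuclear protein (chromosome 1, 25242249 to 25338213, minus strand), had 163, 156 and 162 CPM in PD-1/CD27 hybrids, against 66.0, 90.2 and 104 CPM in PD-1 hybrids. Its values were tightly grouped with CD27 and spread with PD-1 alone, and the log2 fold change was 0.88 (standard error 0.118, edgeR adjusted p = 0.000345). DDX39B, an RNA helicase of splicing and mRNA export, had 279, 254 and 281 CPM in PD-1/CD27 and 161, 198 and 211 CPM in PD-1 hybrids (log2 fold change 0.51, edgeR adjusted p = 0.00645). RBM39, a splicing coactivator, averaged 349 ± 17.3 CPM in PD-1/CD27 and 265 ± 19.4 CPM in PD-1 hybrids (SD, n = 3 each). SRSF10, an SR-like splicing regulator, averaged 172 ± 3.44 and 136 ± 3.91 CPM in the same order. PNISR, a nuclear serine-rich protein, rose more, to 240 ± 32.8 CPM in PD-1/CD27, against 134 ± 28.7 CPM in PD-1 hybrids (log2 fold change 0.84). PRPF38B, TRA2A, HNRNPDL, CIRBP, RBM6, SRSF11 and LUC7L2 were the other members that rose, with log2 fold changes between 0.32 and 0.63.

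Outside this list, WSB1, the substrate receptor of a ubiquitin ligase, was among the higher protein-coding genes with the highest TPM. It had 438, 342 and 375 CPM in PD-1/CD27, against 170, 232 and 243 CPM in PD-1 hybrids, and its mean was 212 ± 12.3 CPM with plain DSLBs and 229 ± 31.4 CPM in DSLB-free tumoroids (log2 fold change over PD-1 0.84, edgeR adjusted p = 0.00221). MAT2A, which makes the methyl donor S-adenosylmethionine, had 856, 713 and 831 CPM in PD-1/CD27 and 557, 628 and 687 CPM in PD-1 hybrids (log2 fold change 0.36, edgeR adjusted p = 0.0479), and passed in 2 of the 6 fits without 1 library. AHCY, which breaks down the S-adenosylhomocysteine that methylation leaves behind, fell to 149 ± 8.90 CPM in PD-1/CD27, against 187 ± 8.23 CPM in PD-1 hybrids (log2 fold change −0.32, edgeR adjusted p = 0.00967). UPF1, the helicase of nonsense-mediated mRNA decay, which was singled out after its values were seen, had 75.8, 75.8 and 80.1 CPM in PD-1/CD27, against 89.3, 97.3 and 88.7 CPM in PD-1 hybrids (log2 fold change −0.25, edgeR adjusted p = 0.0131). ACAD11, an acyl-CoA dehydrogenase, rose to 82.8 ± 7.40 CPM in PD-1/CD27, against 49.7 ± 7.63 CPM in PD-1 hybrids (log2 fold change 0.74, edgeR adjusted p = 0.000345).

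**Figure D2:**
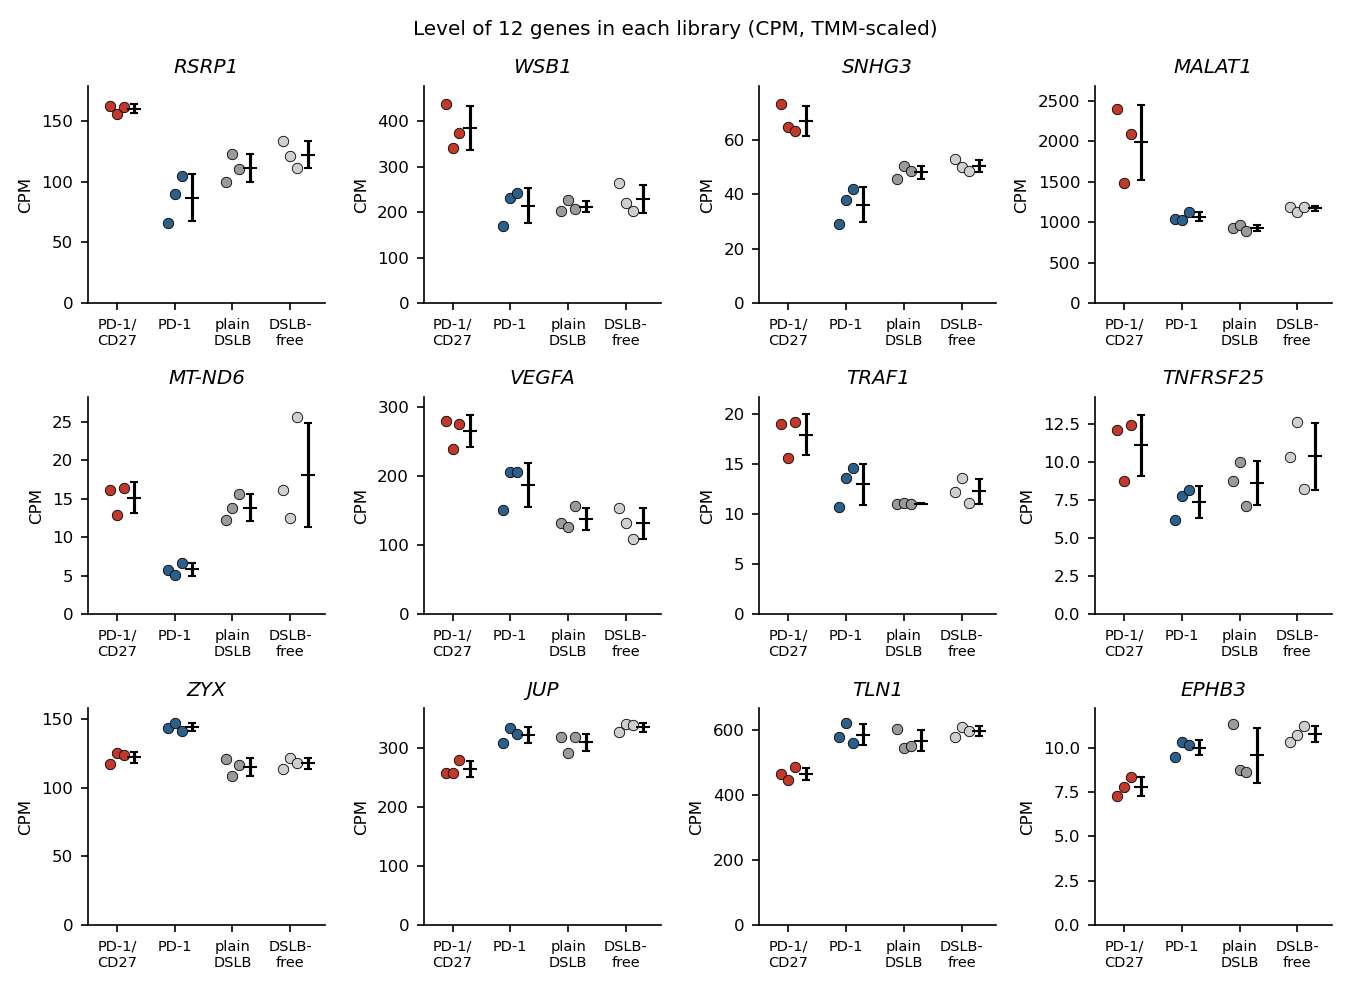
Level of 12 genes in CPM (vertical axes, from 0) in each library of the PD-1/CD27, PD-1, plain DSLB and DSLB-free groups, with 1 point per culture and the mean and SD of 3 beside the points. For the 8 genes RSRP1 to TNFRSF25 the PD-1/CD27 points lie above the PD-1 points, and for ZYX, JUP, TLN1 and EPHB3 they lie below.

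Among the protein-coding genes that passed the test with a mean of at least 50 counts, MT-ND6, NPIPB13 and MYH3 had the largest fold changes. GOLGA8A and GOLGA8B, near-identical copies of a golgin gene on chromosome 15, averaged 407 ± 79.7 and 408 ± 63.9 CPM in PD-1/CD27 and 204 ± 51.9 and 197 ± 55.2 CPM in PD-1 hybrids, and how their reads were split between the copies is uncertain. NPIPB13, which also has near-identical copies, had a log2 fold change of 1.16. FAM118A averaged 81.2 ± 10.3 CPM in PD-1/CD27 and 41.7 ± 7.80 CPM in PD-1 hybrids (log2 fold change 0.96, edgeR adjusted p = 0.00338). MYH3, the embryonic myosin heavy chain, stayed at a low level, with 2.02 ± 0.476 and 0.900 ± 0.218 CPM in the same order. Its mean was 1.96 ± 0.173 CPM with plain DSLBs and 1.95 ± 0.356 CPM in DSLB-free tumoroids, so the PD-1 group was the low one. PABPC1L, PBX4, FAM227A, CSAD and TTLL3 completed the leading genes with log2 fold changes from 0.86 to 0.93. PBX4 averaged 2.53 CPM in PD-1/CD27, 1.32 CPM in PD-1 and 2.00 CPM in plain DSLB hybrids. FAM227A averaged 7.87, 4.18 and 6.62 CPM in the same order. GOLGA8A and GOLGA8B averaged 219 and 212 CPM in plain DSLB hybrids, near their PD-1 means. With 1 library left out, FAM118A passed in all 6 fits, MYH3 in 4, GOLGA8B, PBX4, FAM227A and TTLL3 in 3, GOLGA8A, PABPC1L and CSAD in 2, and NPIPB13 in 1.

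The isoform mixture differed in part of these genes. RSEM reports for each gene and library an effective length, the mean length of its transcripts weighted by their estimated share, which moves when the mixture of isoforms moves. In DDX39B it was 1621, 1417 and 1539 bases in PD-1/CD27, against 1197, 1247 and 1389 bases in PD-1 hybrids. In WSB1 it was 2424, 2219 and 2299 bases in PD-1/CD27, against 1982, 1946 and 2051 bases in PD-1 hybrids. Both genes thus had longer transcripts on average with CD27, without overlap, while RBM39 was shorter with 1552, 1582 and 1476 bases, against 1631, 1608 and 1596 bases. Of the 204 higher protein-coding genes, 17.6% were longer and 9.31% shorter without overlap (counting only genes whose 6 values spanned over 2% of their mean), beside 9.84% and 6.43% of all protein-coding genes tested. These lengths are estimates from single-end reads and were not tested.

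Genes not annotated as protein coding made up 174 (46.0%) of the higher genes, 11 of them absent from the annotation used, beside 22.2% of all genes tested. MALAT1, a long RNA of nuclear speckles (chromosome 11, 65497640 to 65508073), had 2393, 1483 and 2085 CPM in PD-1/CD27, against 1034, 1029 and 1128 CPM in PD-1 hybrids (log2 fold change 0.90 with a standard error of 0.207, edgeR adjusted p = 0.0227), and passed in 2 of the 6 fits without 1 library. The PD-1/CD27 values of MALAT1 were far more spread than those of PD-1 hybrids. Its mean was 1987 CPM in PD-1/CD27 and between 1373 CPM (LAG3) and 2489 CPM (CTLA4) in the other groups with a second protein. MALAT1 and PVT1 were the 2 of 15 nuclear lncRNAs (13.3%) that rose, the list median was 0.41, and NEAT1, the scaffold of paraspeckles, missed the threshold with 424, 292 and 499 CPM in PD-1/CD27 and 169, 231 and 266 CPM in PD-1 hybrids (edgeR adjusted p = 0.0816). Among 26 host genes of small nucleolar RNAs 3 rose (11.5%, median 0.17). Both shares stand beside 2.05% of all genes tested that were called higher. SNHG3 had 73.0, 64.6 and 63.0 CPM in PD-1/CD27 and 29.0, 37.7 and 41.8 CPM in PD-1 hybrids (log2 fold change 0.89, edgeR adjusted p = 0.000345), SNHG20 had a log2 fold change of 0.89 and SNHG4 of 0.75. Among called lncRNAs with a symbol and a mean of at least 50 counts, the leading ones were PCF11-AS1 (log2 fold change 1.44), HELLPAR (1.38) and TMED2-DT (1.33), all below 3 CPM.

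Antisense and divergent transcripts were among the genes that rose. Genes named as antisense (-AS) had 31 of 553 members higher (5.61%) and 1 lower, ZNF687-AS1. Those named as divergent from a promoter (-DT) had 23 of 271 higher (8.49%) and none lower. Of all genes tested 2.05% were called higher, and of the 2344 lncRNAs tested 117 were. Intergenic lncRNAs named LINC had 7 of 262 higher (2.67%), with a median log2 fold change of 0.19. The differences between these shares were not tested. THUMPD3-AS1 had 21.1, 18.2 and 19.1 CPM in PD-1/CD27, against 7.97, 9.14 and 10.5 CPM in PD-1 hybrids (log2 fold change 1.08, edgeR adjusted p = 3.42e-05). THUMPD3, its neighbor, had 44.8, 49.6 and 46.4 CPM in PD-1/CD27 and 50.7, 49.5 and 46.7 CPM in PD-1 hybrids (log2 fold change −0.06, edgeR adjusted p = 0.641). A protein-coding partner with the same symbol stem was tested for 30 of the higher -AS genes and for all 23 of the higher -DT genes. None of these partners passed the test in either direction. Among the partners of all pairs, 5 of 502 for -AS and 3 of 267 for -DT were higher and 0 lower. With so few called over all pairs, the absence of calls is not read as a result about these partners. The difference within the pairs was not tested. The partners' median log2 fold changes were −0.03 and −0.04, beside 0.95 and 0.96 for the noncoding members of the pairs, which were chosen as called higher, so this gap is set by the choice. Over all pairs tested, the medians were 0.18 for 502 -AS genes beside −0.00 for their partners, and 0.21 for 267 -DT genes beside −0.03 for theirs. The partner with the largest value, singled out after the values were seen, was LENG8, with a log2 fold change of 0.73 (edgeR adjusted p = 0.0936) beside 0.91 for LENG8-AS1. Whether the counting used strand is not stated in the labels or methods. Where 2 such genes overlap their reads may be mixed.

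**Figure D3:**
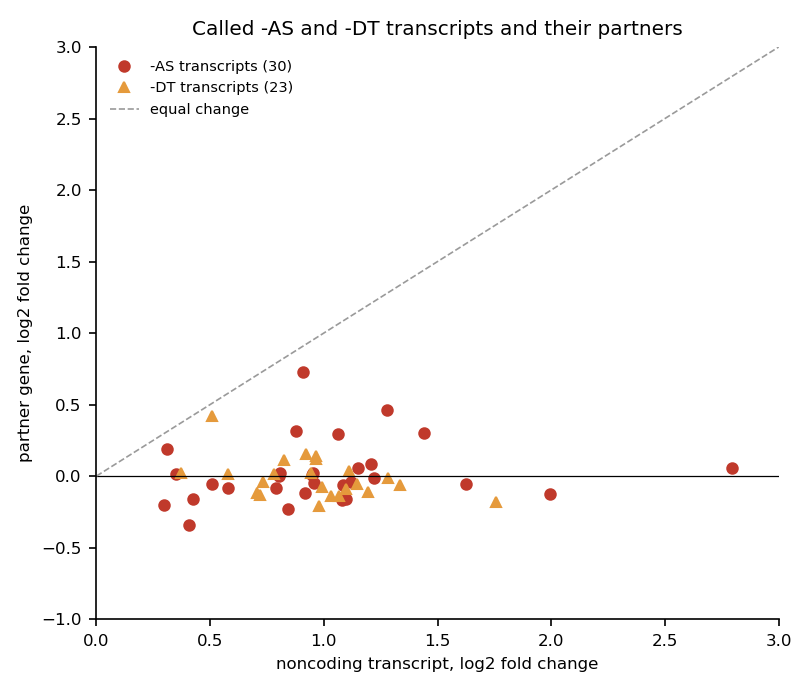
Log2 fold change, PD-1/CD27 over PD-1, of the higher -AS (30) and -DT (23) transcripts (horizontal axis) and of the protein-coding gene with the same symbol stem (vertical axis), with a dashed line where both would be equal. The partners scatter around 0, between −0.34 and 0.73.

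Zinc finger genes named ZNF, a large family of DNA-binding repressors, had 26 of 477 members higher (5.45%) and none lower, with a median of 0.06. Of all genes tested, 2.05% were called higher and 0.233% lower. The ZNF genes summed to 10973 to 11535 CPM in PD-1/CD27, 10117 to 10773 CPM in PD-1 and 11744.5 to 12178.8 CPM in plain DSLB hybrids. PD-1/CD27 hybrids thus lay below plain DSLB hybrids, and the PD-1 group was the low one. ZNF83 averaged 63.9 ± 7.28 CPM in PD-1/CD27 and 37.4 ± 5.69 CPM in PD-1 hybrids (log2 fold change 0.77). ZNF117, also chosen after its values were seen, averaged 120 ± 17.7 and 68.0 ± 15.9 CPM in the same order (log2 fold change 0.82). Over all 378 higher genes the median GC content of the longest transcript was 45.1%, against 56.3% over the 43 lower and 48.4% over all genes tested.

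RNA of the mitochondrial genome had higher levels with CD27, but most of its mRNAs did not pass the test. MT-ND6, which encodes a complex I subunit and is the only mRNA on the light strand, had 16.2, 12.8 and 16.4 CPM in PD-1/CD27, against 5.75, 5.01 and 6.65 CPM in PD-1 hybrids (log2 fold change 1.40 with a standard error of 0.265, edgeR adjusted p = 0.00774). The mean of MT-ND6 was 13.8 ± 1.72 CPM with plain DSLBs and, in DSLB-free tumoroids, 18.1 ± 6.73 CPM, so the PD-1 group was the low one. All 13 mitochondrial mRNAs had PD-1/CD27 values above the PD-1 values without overlap, beside 13.5% of all genes. Their median log2 fold change was 0.79, but only MT-ND6 and MT-ND4L (15.4%) rose past the threshold, beside 2.05% of all genes. MT-CO1, a subunit of complex IV, shows the spread with 13716, 11793 and 13186 CPM in PD-1/CD27 and 6169, 9380.4 and 9454 CPM in PD-1 hybrids (edgeR adjusted p = 0.149). Both mitochondrial rRNAs rose. MT-RNR1, the small-subunit rRNA, had 1894, 1969 and 1657 CPM in PD-1/CD27, against 964, 1146 and 1090 CPM in PD-1 hybrids, and 739 ± 39.1 CPM in plain DSLB hybrids (log2 fold change over PD-1 0.79, edgeR adjusted p = 0.00572). MT-RNR1 averaged 1734, 1998 and 1754 CPM with CD2, CD40L and CTLA4 beside PD-1, near its PD-1/CD27 mean of 1840 CPM. With ICOS, LAG3 and TIGIT it averaged 1098, 1006 and 1126 CPM, near its PD-1 mean of 1067 CPM. The higher level was thus not particular to CD27. MT-ND6 and MT-RNR1 each missed the threshold without PD-1 replicate 1, and MT-ND4L passed in 1 of 6 such fits. Of the nuclear genes of the respiratory chain 0 of 73 passed the edgeR test in either direction, and 18 were lower and none higher at an unadjusted p under 0.05 (median −0.16). Of all genes tested, 10.8% were higher and 6.22% lower at that unadjusted p.

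Ribosomal protein mRNAs had lower levels with CD27, although nearly all missed the threshold. The median log2 fold change of the 80 genes was −0.22 with members from −0.41 to 0.04, and 67 of the 80 had PD-1/CD27 values below the PD-1 values without overlap, beside 13.4% of all genes. Ribosomal protein genes took 6.49, 7.10 and 6.93% of the counts in PD-1/CD27 and 8.21, 7.76 and 7.90% in PD-1 libraries. Other mRNAs with the same 5′ terminal motif, such as translation elongation factors, had a median of −0.10 and none of 17 passed the test in edgeR, with 3 lower at an unadjusted p under 0.05, beside 6.22% of all genes. Other lower genes of protein synthesis were VARS1, the valyl-tRNA synthetase, with 105, 109 and 106 CPM in PD-1/CD27 and 140, 138 and 127 CPM in PD-1 hybrids (log2 fold change −0.34, edgeR adjusted p = 0.0101), and MRPL14, a mitochondrial ribosomal protein (log2 fold change −0.35). VARS1 passed in 2 and MRPL14 in 0 of the 6 fits without 1 library.

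**Figure D4:**
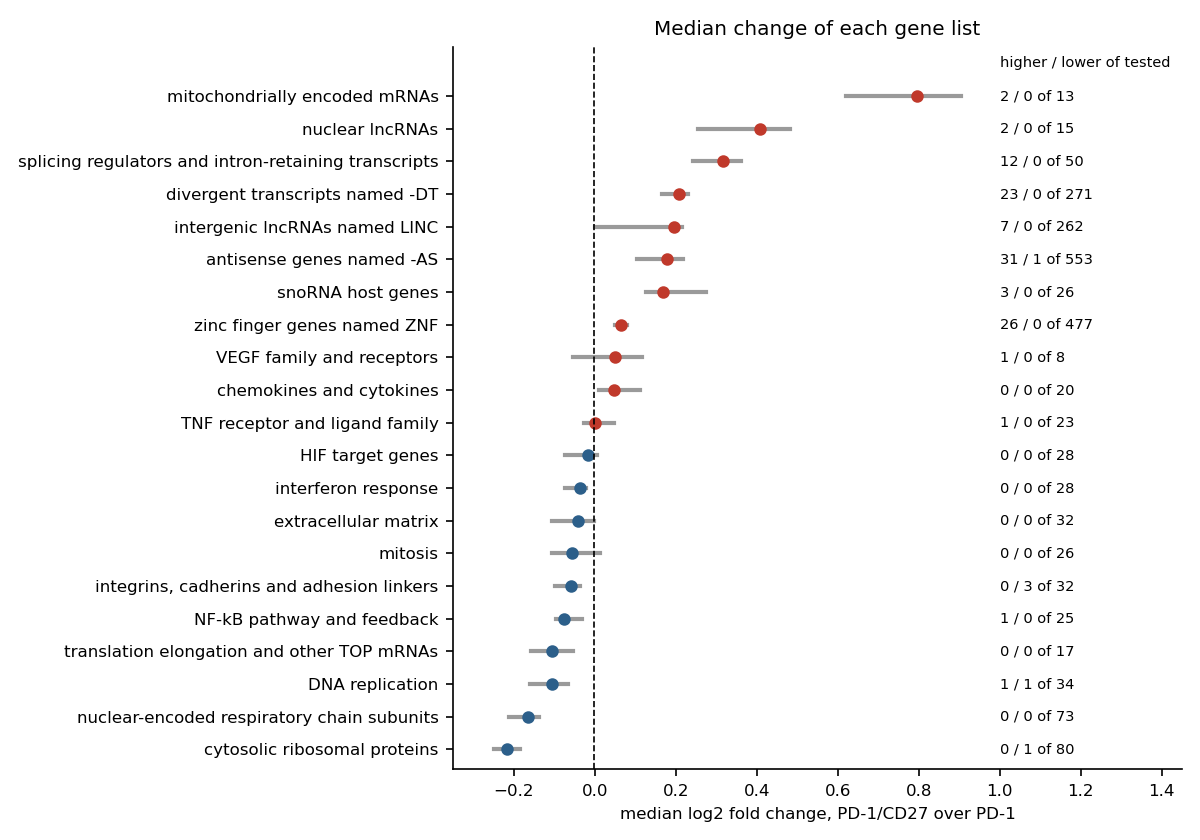
Median log2 fold change, PD-1/CD27 over PD-1, of 21 gene lists (points), with the range of the median over the alternative fits (gray bars) and the median of all genes (dashed line). The numbers at the right give how many members were higher and lower past the threshold of how many tested. Mitochondrial mRNAs lie farthest to the right at 0.79 and ribosomal proteins farthest to the left at −0.22.

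Cell adhesion genes supplied several of the lower genes. Of 32 genes for integrins, cadherins and their linkers 3 fell (9.38%) and none rose, beside 0.233% lower and 2.05% higher among all genes tested. JUP, or plakoglobin, which ties cadherins and desmosomes to the cytoskeleton (chromosome 17, 41754604 to 41786931, minus strand), had 257, 257 and 280 CPM in PD-1/CD27, against 308, 335 and 324 CPM in PD-1 hybrids (log2 fold change −0.28 with a standard error of 0.0564, edgeR adjusted p = 0.00762). TLN1, the talin that couples integrins to actin, had 463, 445 and 484 CPM in PD-1/CD27 and 576, 620 and 559 CPM in PD-1 hybrids (log2 fold change −0.33). ZYX, the focal adhesion protein zyxin, had 117, 125 and 124 CPM and 144, 147 and 142 CPM in the same order (log2 fold change −0.24). Its mean was 115 CPM with plain DSLBs and 118 CPM in DSLB-free tumoroids, so beside these controls the PD-1 group was the high one. In the other groups with a second protein ZYX averaged between 118 CPM (CD2) and 147 CPM (ICOS). TLN1 averaged 464 CPM in PD-1/CD27, 566 CPM with plain DSLBs and between 427 CPM (CD2) and 596 CPM (ICOS) in those other groups. EPHB3, a receptor tyrosine kinase for ephrin-B ligands and the 1 of 17 ephrin genes that fell (chromosome 3, 184561785 to 184582408), had 7.28, 7.80 and 8.33 CPM in PD-1/CD27, against 9.50, 10.3 and 10.2 CPM in PD-1 hybrids (log2 fold change −0.36, edgeR adjusted p = 0.0410). These changes were small, but the 3 values of each group lay close together. With 1 library left out, JUP passed in 5 of 6 fits and missed the threshold without PD-1/CD27 replicate 1, TLN1 and ZYX passed in 2, and EPHB3 passed in 0. None of 32 extracellular matrix genes passed the test in edgeR, with 3 lower at an unadjusted p under 0.05, beside 6.22% of all genes. Among the lower genes with the highest TPM were also BAG6, a chaperone of membrane proteins, PSMA6, a proteasome subunit, and DDB1, an adaptor of ubiquitin ligases, with log2 fold changes from −0.25 to −0.19.

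In each of the lists for NF-kB and for TNF receptors and ligands 1 gene rose, which is not read as a result about the lists, since 2.05% of all genes tested were called higher. TRAF1, an adaptor that NF-kB induces, had 19.1, 15.6 and 19.3 CPM in PD-1/CD27, against 10.7, 13.6 and 14.7 CPM in PD-1 hybrids, and was at 11.1 ± 0.0329 CPM in plain DSLB hybrids (log2 fold change over PD-1 0.47 with a standard error of 0.108, edgeR adjusted p = 0.0161). It was the 1 of 25 NF-kB genes that rose (4.0%), and the list median was −0.08. TRAF5, an adaptor of CD27 itself, and TNFAIP3, the feedback inhibitor A20, missed the threshold with log2 fold changes of 0.42 and 0.39 (edgeR adjusted p = 0.0588 and 0.0852), and NFKBIA, the inhibitor IkBα, had −0.18 (edgeR adjusted p = 0.213). TNFRSF25, the death receptor DR3, was the 1 of 23 TNF receptor and ligand genes that rose (4.35%), with 12.1, 8.77 and 12.4 CPM in PD-1/CD27 and 6.17, 7.75 and 8.19 CPM in PD-1 hybrids (log2 fold change 0.60, edgeR adjusted p = 0.0319). Its mean was 11.1 CPM in PD-1/CD27 and between 7.52 CPM (TIGIT) and 11.2 CPM (CD2) in the other groups with a second protein. None of 20 chemokine and cytokine genes passed the test in edgeR, with 4 higher and 1 lower at an unadjusted p under 0.05, beside 10.8% higher and 6.22% lower among all genes. IL11 came close with 6.29, 6.74 and 6.02 CPM in PD-1/CD27 and 4.35, 4.67 and 5.51 CPM in PD-1 hybrids (edgeR adjusted p = 0.0591).

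VEGFA, the main angiogenic growth factor, had 281, 239 and 276 CPM in PD-1/CD27, against 151, 206 and 207 CPM in PD-1 hybrids (log2 fold change 0.50 with a standard error of 0.123, edgeR adjusted p = 0.0284). The mean of VEGFA was 138 ± 15.7 CPM with plain DSLBs and, in DSLB-free tumoroids, 132 ± 22.6 CPM. VEGFA averaged 266 CPM in PD-1/CD27 and between 186 CPM (TIGIT) and 250 CPM (CD40L) in the other groups with a second protein. It was the 1 of 8 genes of its family that rose, VEGFB had a log2 fold change of −0.22 (edgeR adjusted p = 0.196), and none of 28 HIF target genes passed the test in edgeR, with 5 lower and none higher at an unadjusted p under 0.05, beside 6.22% lower and 10.8% higher among all genes. VEGFA and TRAF1 passed in 3 and TNFRSF25 in 2 of the 6 fits without 1 library, and all 3 genes missed the threshold without PD-1 replicate 1, without PD-1/CD27 replicate 1 and without PD-1/CD27 replicate 3.

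Of 34 DNA replication genes 1 rose and 1 fell (2.94% each), beside 2.05% higher and 0.233% lower among all genes tested. Such single calls are not read as a result about the list. ORC6, a subunit of the origin recognition complex, rose (log2 fold change 0.37). MCM2, a subunit of the replicative helicase, fell (−0.28), and the list median was −0.11. None of 26 mitosis genes, 21 p53 targets, 28 interferon response genes, 19 MHC class I genes or 24 cholesterol synthesis genes passed the test in edgeR. At an unadjusted p under 0.05 there were 2, 3, 3, 1 and 1 genes in these lists, beside 17.0% of all genes tested.

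The next question was which of these levels differed between PD-1/CD27 and the other proteins presented with PD-1, compared without the PD-1 group. These comparisons share the PD-1/CD27 libraries with the one against PD-1. Against PD-1/CD2 and against PD-1/CTLA4 hybrids no gene passed the edgeR test, with 805 and 2561 genes at an unadjusted p under 0.05, and DESeq2 called 4 and 19. Without PD-1/CTLA4 replicate 2, the library farthest from its group, 187 genes were higher and 488 lower in PD-1/CD27 than in PD-1/CTLA4 hybrids. Against the mean of the 6 other groups with a second protein, PD-1/CD27 hybrids had 12 higher and 3 lower genes (0.0814% of 18424).

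SCARNA7, a small RNA of the Cajal body that guides chemical modification of spliceosomal RNAs (chromosome 3, 160514907 to 160515236), led this comparison with a log2 fold change of 2.11 (edgeR adjusted p = 9.39e-05). Its level did not follow CD27 over the 10 groups. It had 1.08, 0.997 and 0.557 CPM in PD-1/CD27 and 0.125, 0.0556 and 0.0583 CPM in PD-1 hybrids, and all 12 libraries with CD2, CD27, CD40L or CTLA4 had 0.557 to 1.08 CPM, while all 18 other libraries had 0 to 0.133 CPM. The counts behind these values were low, with 52, 29 and 21 counts in PD-1/CD27 and 5, 3 and 2 counts in PD-1 libraries. The methods describe the conditions as made in 3 parallel replicates and name no batches of RNA extraction or libraries. Any such difference between these 4 groups and the other 6 and the presented proteins cannot be told apart. It would also enter the comparison with the mean of the groups with a second protein, for every gene. Of those groups, CD2, CD40L and CTLA4 lie on the side of CD27, and ICOS, LAG3 and TIGIT lie on the other. PD-1/CD27 and PD-1 lie on different sides of this split, whereas PD-1/CD27, PD-1/CD2 and PD-1/CTLA4 lie on the same side. Mean levels of both mitochondrial rRNAs split along the same line. MT-RNR1 averaged 1734 to 1998 CPM in these 4 groups, against 538 to 1126 CPM in the other 6. MT-RNR2, the large-subunit rRNA, averaged 12691 to 13386 CPM and 6706 to 9380 CPM in the same order.

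The other 11 higher genes were THUMPD3-AS1, ACAD11, RSRP1, ZNF731P, ZNF354B, THAP9-AS1, MTRF1, LRRC37A, OFD1, PCBP1-AS1 and SRRM2-AS1. RSRP1 averaged 160 ± 3.79 CPM in PD-1/CD27, against 145 ± 15.5 CPM with CD2, 125 ± 18.6 CPM with CD40L, 125 ± 2.36 CPM with CTLA4, 122 ± 5.55 CPM with ICOS, 95.1 ± 4.89 CPM with LAG3 and 95.2 ± 8.49 CPM with TIGIT beside PD-1 (log2 fold change 0.46, edgeR adjusted p = 0.0284). ACAD11 averaged 82.8 ± 7.40 CPM in PD-1/CD27 and between 47.2 and 75.2 CPM in the 6 others (log2 fold change 0.44, edgeR adjusted p = 0.0262). OFD1, a centriole protein, averaged 47.3 ± 4.68 CPM in PD-1/CD27 and between 32.5 and 41.8 CPM in the 6 others (log2 fold change 0.33). LRRC37A, a member of a duplicated family, was the only 1 of the 15 that did not pass against PD-1.

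JUP, EPHB3 and VARS1 were the 3 lower genes. JUP averaged 265 ± 13.0 CPM in PD-1/CD27 and 272 ± 16.0 CPM with CD2, while the other 5 groups averaged between 305 and 331 CPM (log2 fold change −0.22, edgeR adjusted p = 0.0324). EPHB3 averaged 7.80 ± 0.523 CPM in PD-1/CD27, next to 8.65 ± 0.325 CPM with CD2 and up to 11.7 ± 1.34 CPM with TIGIT (log2 fold change −0.40, edgeR adjusted p = 0.0284). VARS1 averaged 107 ± 2.15 CPM in PD-1/CD27 and between 109 and 146 CPM in the 6 others (log2 fold change −0.28, edgeR adjusted p = 0.0347). For all 3 genes the CD2 group was the nearest to CD27, and the values of the 2 groups overlapped in each. Only SCARNA7 passed whichever PD-1/CD27 library was left out, with 1 to 3 genes called in these fits.

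**Figure D5:**
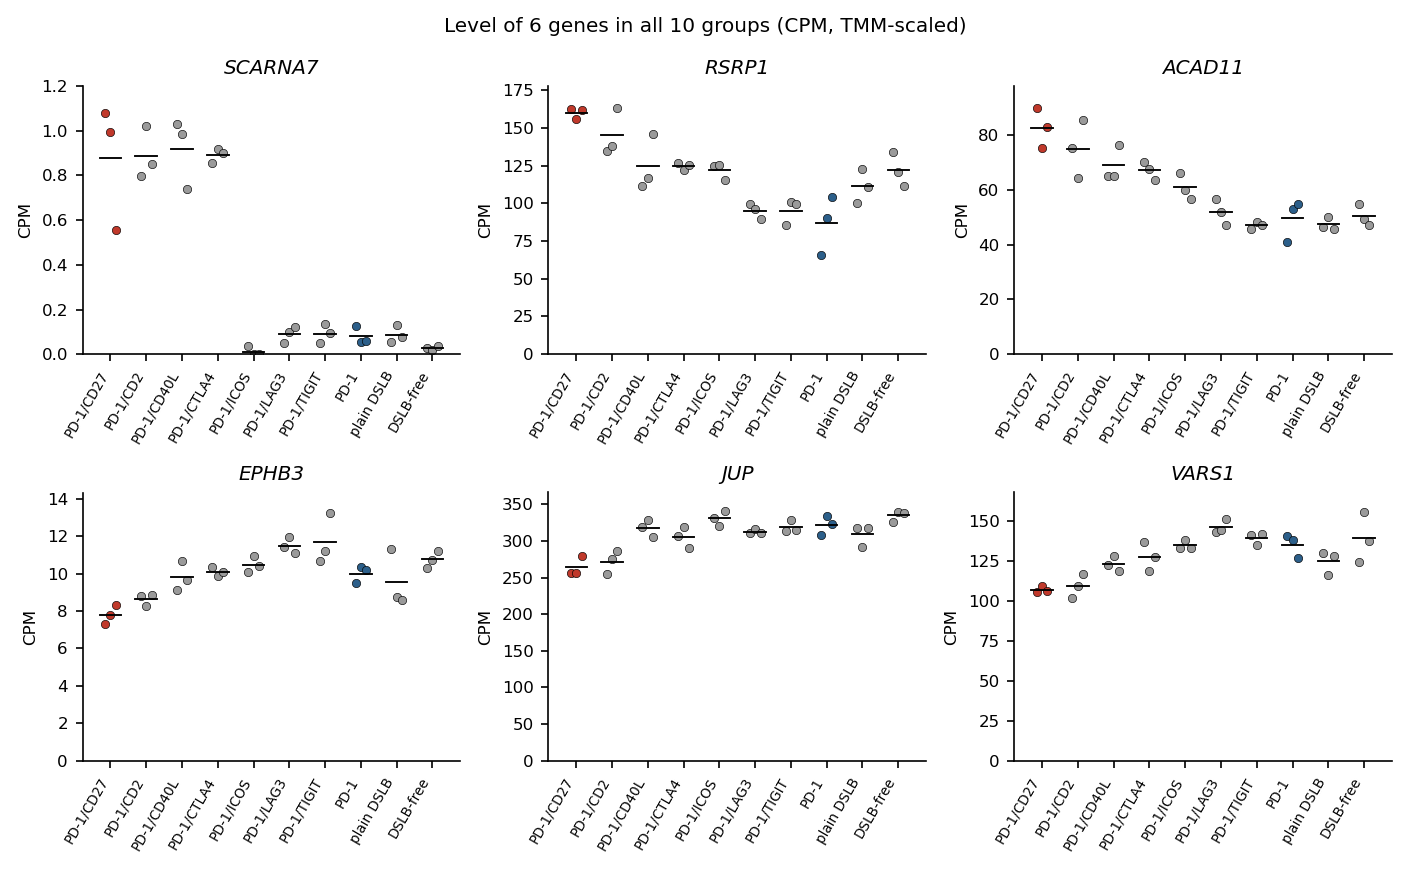
Level of SCARNA7, RSRP1, ACAD11, EPHB3, JUP and VARS1 in CPM (vertical axes, from 0) in all 10 groups, with 1 point per culture and a bar at the mean, PD-1/CD27 in red and PD-1 in blue. SCARNA7 is near 0.9 CPM in 4 groups and below 0.14 CPM in 6.

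The promoter windows of RSRP1, EPHB3 and JUP, genes called in both comparisons, are shown because 1 rose and 2 fell. They are RefSeq windows on GRCh38.p14 from 250 bases before to 50 after the annotated start, 5′ to 3′ on the strand of the gene, at chr1:25338205-25338504 (minus strand), chr3:184561535-184561834 (plus strand) and chr17:41786662-41786961 (minus strand, the first of 2 windows listed for JUP). Capitals mark GC boxes, GGGCGG or its complement CCGCCC, which Sp family factors bind.
RSRP1: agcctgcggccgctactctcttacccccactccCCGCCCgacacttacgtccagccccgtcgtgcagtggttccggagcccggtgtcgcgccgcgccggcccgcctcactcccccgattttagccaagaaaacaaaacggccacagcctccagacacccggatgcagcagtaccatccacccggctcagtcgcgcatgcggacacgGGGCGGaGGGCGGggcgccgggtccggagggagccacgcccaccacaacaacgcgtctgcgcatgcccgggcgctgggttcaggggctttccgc
EPHB3: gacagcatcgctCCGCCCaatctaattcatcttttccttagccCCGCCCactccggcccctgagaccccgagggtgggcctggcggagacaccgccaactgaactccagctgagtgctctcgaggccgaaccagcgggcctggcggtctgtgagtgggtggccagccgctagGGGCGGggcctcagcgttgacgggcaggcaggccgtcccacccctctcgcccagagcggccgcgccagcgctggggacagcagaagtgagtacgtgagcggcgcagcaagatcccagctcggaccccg
JUP: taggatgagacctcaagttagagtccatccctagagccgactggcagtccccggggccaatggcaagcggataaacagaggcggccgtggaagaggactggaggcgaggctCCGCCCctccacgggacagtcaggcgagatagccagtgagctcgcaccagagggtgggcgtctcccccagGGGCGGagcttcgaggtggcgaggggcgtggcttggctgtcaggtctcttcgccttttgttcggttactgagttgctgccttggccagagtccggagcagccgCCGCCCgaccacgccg
Each window holds 3 GC boxes, counted on both strands, and 45.0% of all 35116 windows of this length hold at least 1. At least 1 stands in 184 of the 308 windows listed for higher genes (59.7%) and in 38 of the 46 listed for lower genes (82.6%), given without a test. The 45.0% covers the windows of all genes listed, not only of the genes tested. A share over the genes tested was not computed, so the gap to 45.0% is not read as a result.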

How the data were processed

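RNA was measured in 30 libraries (10 groups of 3 cultures), of which 6 enter the main comparison. Per the labels and methods, libraries were made with a directional kit, sequenced as single reads, trimmed with Trim Galore 0.3.3, checked with FastQC 0.11.2, aligned to hg38 with STAR (SAMtools 1.3.1) and quantified with RSEM. Neither the labels nor the methods name the annotation release, an enrichment or depletion step, or how strand was treated in counting. The authors deposited, per gene and library, RSEM's expected counts, which are not normalized, TPM values, and an effective length in bases (deposited as another unit, the mean transcript length weighted by isoform share).

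Expected counts were rounded and fitted with edgeR 4.0.16 (R 4.3.3) in 1 quasi-likelihood model over the 30 libraries, each group having its own mean, with filterByExpr by group and TMM factors. Of 60483 gene records 18424 were kept. P-values were adjusted by Benjamini-Hochberg over these, with a threshold of 0.05. Totals ran from 21.9 to 60.5 M counts, and log2 fold changes had a median standard error of 0.115 at a biological coefficient of variation of 0.0942. Symbols, types and coordinates came from GENCODE 44 on GRCh38 by gene ID (56321 matched, 4162 not), and promoter windows from RefSeq. The step was tested on simulated data.

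Genes were named by a rule. Among called genes with a mean of at least 50 counts and no overlap, it took the 12 protein-coding genes with the largest change in each direction, 6 others each, and the 8 protein-coding genes with the highest TPM in each direction, and also up to 6 members of each gene list with the smallest p and CD70, CD274, CD27 and PDCD1. Genes outside it were chosen after their values were seen, among them UPF1, ZNF117, the partners THUMPD3 and LENG8, and genes named to complete a count. The comparison, the gene lists and these rules were chosen with earlier results of these data known. Alternatives were limma-voom (limma 3.58.1), DESeq2 1.42.0, fits on the 6 libraries, RLE factors, other filters and gene sets, a threshold of 0.1, removal of a gene length trend, a replicate block and leaving out each library. Chosen after seeing the data were the removal of a GC trend, leaving out 3 libraries that stood apart (PD-1 replicate 1, PD-1/LAG3 replicate 3 and DSLB-free replicate 2), and leaving out each PD-1/CD2 and PD-1/CTLA4 library. The values of 1 called gene are not reported here.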

Additional observations from a re-analysis of the deposited data

How the results depend on the processing

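Against 421 genes called between PD-1/CD27 and PD-1 hybrids (378 higher, 43 lower), DESeq2 on all 30 libraries called 799 (624 and 175), DESeq2 on the 6 libraries 1452 (818 and 634), and edgeR on the 6 libraries 1037 (608 and 429). No filter on low counts gave 1290 (943 and 347), protein-coding genes only 181 (164 and 17), removal of the gene length trend 766 (545 and 221), and a threshold of 0.1 973 (774 and 199). Of the alternatives chosen after seeing the data, removal of the GC trend gave 82 lower genes and leaving out the 3 libraries that stood apart gave 46 (41 and 5). Leaving out 1 library gave 25 to 609 genes (22 to 527 higher, 2 to 82 lower), lowest without PD-1 replicate 1. The replicate block gave 448 genes (397 and 51). The deviations of same-numbered libraries correlated at −0.021, −0.0807 and 0.193, and those of differently numbered ones at −0.188 to 0.194. With 3 libraries per group, these values cannot decide whether the replicate numbers paired the cultures. Against PD-1/CD2 DESeq2 called 4 genes and leaving out 1 library gave 0 to 1. Against PD-1/CTLA4 DESeq2 called 19, and leaving out 1 library gave 0 to 675, with 675 without PD-1/CTLA4 replicate 2 (chosen after seeing the data). With the replicate block both counts were 0. Against the mean of the 6 other groups DESeq2 called 190 genes (115 higher, 75 lower), the replicate block 12, and leaving out 1 PD-1/CD27 library gave 1 to 3. Over the named genes against PD-1 and their alternatives, 1003 values kept their side of the threshold, 289 no longer passed, 11 newly passed and 0 changed direction. The causes were not tested. Under the alternatives 746 medians of gene lists moved by less than the median standard error of their members' log2 fold changes and 3 by more. This is the standard error of single genes, which is a wide limit for the median of a list. Depth limits SCARNA7, with 2 to 52 counts in the 6 libraries, and the PD-1 ligands.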
